A study of Homo sapiens with 2 samples.

Results

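FOS, FOSB, FOSL1, FOSL2, JUN, JUNB, JUND, EGR1 and IER3 are grouped here as immediate early genes, although JUND is more steadily expressed. Together with MYC they were compared between MRC-5 lung fibroblasts with and without knockdown of periostin. These 10 genes were taken by symbol from the 21743 genes that could be named on the array through a RefSeq accession, with earlier results of these data known. They were read by 11 probes on 20 spots, of which MYC had 10 spots of 1 probe, IER3 had 2 probes and the other 8 genes had 1 spot each. MRC-5 is a standard fibroblast cell line from human fetal lung. Both samples were MRC-5 cells transfected with 10 nM control siRNA or 10 nM siRNA against POSTN, the gene of periostin, and total RNA was taken after 48 h; they are called control and silenced cells here. Each condition was 1 sample on 1 single-colour Agilent array, and both arrays lay on 1 slide. No replicate was measured, so no difference between the conditions could be tested and no p-value is given.

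Immediate early genes are switched on within minutes of a growth factor, serum or stress signal, without new protein being made first, and most of their mRNAs are short-lived. FOS and JUN proteins pair through leucine zippers to form AP-1, the dimer that binds TGACTCA sites. Fibroblasts given serum are the textbook case, in which ERK kinases phosphorylate ternary complex factors that act with SRF at CArG boxes near FOS and EGR1. MYC pairs with MAX at CACGTG sites and drives genes of ribosome making and cell growth.

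The AP-1 family had ratios of opposite sign after periostin silencing. FOS was 4.27-fold lower in silenced cells, though its log2 ratio of -2.09 fell to -1.02 under another background correction, and FOSL1 was 2.35-fold lower. JUN was 2.83-fold higher and FOSL2 was 2.26-fold higher. JUNB, JUND, IER3 and MYC were lower by 1.51-fold to 1.59-fold, EGR1 was 1.23-fold lower, and FOSB differed by less than its spot error. The median log2 ratio of silenced to control cells was -0.63 over the 10 genes, of which 7 lay below 0. Over the 16052 genes that could be measured the median was 0.06, and 7307 lay below 0.

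The promoters of FOS, FOSB, EGR1 and JUN are shown so that the known elements of the immediate early response can be read beside the unlike ratios of these genes. The 250 bases before the gene start were read from RefSeq (GRCh38.p14) for the 7 genes that matched, and FOSL1, IER3 and MYC were not matched. The FOS sequence is chr14:75278578-75278827 on the plus strand, FOSB is chr19:45467746-45467995 on the plus strand, EGR1 is chr5:138465229-138465478 on the plus strand and JUN is chr1:58784048-58784297 on the minus strand. Each runs 5′ to 3′ and ends at the last base before the gene start. Capitals mark, on either strand, the cAMP response core TGACGT, the TATA box as TATAAA, the octamer TGACATCA and the CArG box, which is the site of SRF.
FOS: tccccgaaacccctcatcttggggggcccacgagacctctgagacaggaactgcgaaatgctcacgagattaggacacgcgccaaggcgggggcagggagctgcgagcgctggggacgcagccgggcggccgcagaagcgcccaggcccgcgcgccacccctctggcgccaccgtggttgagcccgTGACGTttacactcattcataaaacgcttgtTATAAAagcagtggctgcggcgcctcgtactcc
FOSB: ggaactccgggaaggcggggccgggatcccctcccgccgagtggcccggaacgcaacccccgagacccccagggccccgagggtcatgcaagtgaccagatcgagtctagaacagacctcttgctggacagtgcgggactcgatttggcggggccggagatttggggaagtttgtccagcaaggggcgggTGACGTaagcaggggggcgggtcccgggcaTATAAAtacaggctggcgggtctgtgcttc
EGR1: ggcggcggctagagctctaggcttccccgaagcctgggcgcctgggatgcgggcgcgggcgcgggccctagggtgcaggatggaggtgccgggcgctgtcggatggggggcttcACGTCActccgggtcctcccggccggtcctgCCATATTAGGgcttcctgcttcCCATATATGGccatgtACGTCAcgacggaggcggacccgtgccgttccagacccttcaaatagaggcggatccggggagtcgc
JUN: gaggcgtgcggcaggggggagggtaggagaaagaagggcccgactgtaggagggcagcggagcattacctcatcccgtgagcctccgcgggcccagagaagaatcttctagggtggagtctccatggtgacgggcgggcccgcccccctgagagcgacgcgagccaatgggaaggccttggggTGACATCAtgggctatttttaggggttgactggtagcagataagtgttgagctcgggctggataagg

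FOS and FOSB have the same pair of elements in nearly the same place. In FOS, TGACGT lies 64 to 59 bases before the gene start and TATAAA at 33 to 28, and in FOSB they lie at 60 to 55 and at 30 to 25. EGR1 holds 2 CArG boxes, at 105 to 96 and at 83 to 74 bases before its start, and TGACGT on the other strand, read here as ACGTCA, at 136 to 131 and at 67 to 62. JUN holds TGACATCA at 67 to 60, a variant of the AP-1 site that was added to the search after this sequence had been seen. TGACGT, the core of the cAMP response element, was found in 5 of the 7 genes, namely FOS, FOSB, FOSL2, JUND and EGR1, and in 7.10% of 35093 promoters of the same length. The full element TGACGTCA, which contains it, was found in JUND alone of the 7 and in 1.65% of all promoters. A CArG box was found in 1.16% of all promoters, TGACATCA in 2.37% and TATAAA in 10.7%, the last also in JUNB. The AP-1 site TGACTCA (4.20% of all promoters), the EGR sites GCGGGGGCG and GCGTGGGCG (5.36% hold either) and the MYC site CACGTG (6.34%) were not found in these letters in any of the 7. Of the 7 genes, a CArG box was found in EGR1 alone. Bases farther from the gene start were not searched, so a CArG box of FOS lying there would be missed. A match describes the sequence and shows no binding.

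Values below are processed signals in arbitrary units after both arrays were brought to a common 75th percentile, and a ratio is that of silenced to control cells. Signals of different probes are not comparable, so only the ratios are set against each other, and a sum over markers is compared only between the arrays. A spot counts as well above background when Feature Extraction flags it so, and the lowest spot with that flag had a signal of 7.55 for the control cells and of 7.77 for the silenced cells. The ± of a single spot is the error that Feature Extraction propagates, about 0.20 on the log2 scale for a bright spot, and that of a probe with 10 spots is the SD over them. Neither covers a difference between cultures, and fewer cells of a type cannot be told apart from less RNA per cell.

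POSTN itself had a signal of 2638 ± 264 in control cells and 279.8 ± 28.0 in silenced cells, so the target of the siRNA was 9.43-fold lower. The 7 fibroblast markers, among them COL1A1, COL1A2 and VIM, were all well above background, with log2 ratios from -0.54 (COL1A1) to 0.83 (LUM). Their summed signal was 327172 in control cells and 294953 in silenced cells. This sum is weighted to the brightest probe, that of VIM, at 189263 and 174022. Of 5 epithelial markers, CDH1, KRT5 and SFTPB were not well above background on either array, and the summed signal was 74.0 and 199, with EPCAM at 34.6 and 135. The 3 endothelial markers summed to 124 and 128. Of these CDH5 and VWF were well above background on both arrays, and PECAM1 on neither. VWF had a log2 ratio of 0.15, and a second, dimmer probe of it gave 0.79. The 4 immune markers that could be named, without LYZ, summed to 31.3 and 46.1, with MS4A1 not well above background on either array. The part of these cell type markers in the results was not tested.

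**Figure D1:**
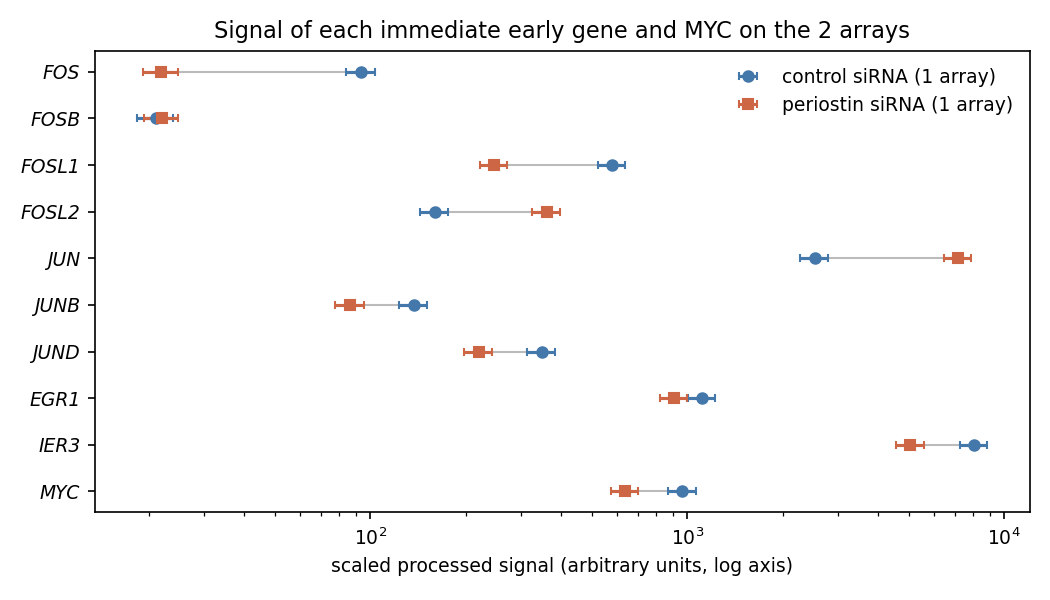
Scaled processed signal (log axis, arbitrary units) of the 10 genes on the control array (circles) and the silenced array (squares), each from the brightest probe of the gene, with bars for the error propagated by Feature Extraction (for MYC, its mean over 10 spots). For FOS and FOSL1 the silenced point lies to the left, for JUN and FOSL2 to the right, and the points of FOSB overlap; only the 2 points of the same gene can be compared.

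Among the FOS family, FOS had a signal of 93.7 ± 9.53 in control cells and 22.0 ± 2.81 in silenced cells. FOS encodes the prototype AP-1 partner, whose mRNA is made in a short burst and quickly destroyed. Its log2 ratio was -2.09 ± 0.24, and 1.50% of the measured genes had a lower one. The spot was dim, and the normexp background correction, which adds an offset of 50 to both arrays, gave a log2 ratio of -1.02.

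FOSL1 encodes FRA-1, a FOS-related protein without a transactivation domain that accumulates in growing fibroblasts under ERK signalling. Its signal was 579 ± 58.0 in control cells and 246 ± 24.7 in silenced cells. The log2 ratio was -1.23 ± 0.20, and 4.42% of the measured genes lay lower.

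FOSL2 encodes FRA-2, the related protein, which drives fibrosis when overexpressed in mice. Its signal was 159.8 ± 16.1 in control cells and 361 ± 36.2 in silenced cells, so FOSL2 went the opposite way to FOSL1. The log2 ratio was 1.18 ± 0.21, and 6.17% of the measured genes lay higher.

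FOSB, the remaining FOS-type gene, had a signal of 21.1 ± 2.69 in control cells and 22.1 ± 2.76 in silenced cells. Its log2 ratio of 0.06 ± 0.26 was smaller than its error, and its sign changed under scaling on the median, quantile normalization and loess. Dim as they were, FOS and FOSB carried the flag for a signal well above background on either array.

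Among the JUN family, JUN had a signal of 2530 ± 253 in control cells and 7158 ± 716 in silenced cells. JUN can bind DNA as a homodimer or with a FOS protein and is activated by JNK. Its log2 ratio of 1.50 ± 0.20 was the highest of the 10 genes, and 3.86% of the measured genes lay higher. It stayed under 3-fold in the alternatives that were run, between 1.37 and 1.54.

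JUNB and JUND went the other way from JUN. JUNB, an immediate early gene that can oppose JUN in the cell cycle, had a signal of 137.6 ± 13.9 in control cells and 86.5 ± 8.81 in silenced cells, a log2 ratio of -0.67 ± 0.21. JUND, the more steadily expressed member, had a signal of 347 ± 34.8 in control cells and 219.8 ± 22.0 in silenced cells, a log2 ratio of -0.66 ± 0.20.

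EGR1, the zinc finger factor made in the same burst as FOS, had a signal of 1117 ± 112 in control cells and 909 ± 91.0 in silenced cells. Its log2 ratio of -0.30 ± 0.20 was little larger than its error, and 25.7% of the measured genes lay lower.

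IER3, which encodes a short-lived protein that modulates ERK signalling and cell death, had 2 probes. The brighter gave a signal of 8037 ± 804 in control cells and 5063 ± 506 in silenced cells, and the other 3321 ± 332 and 2099 ± 209.9. Their log2 ratios were -0.67 ± 0.20 and -0.66 ± 0.20, so the 2 probes differed by less than their errors.

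MYC was the only gene of the 10 whose probe was printed 10 times. In control cells its spots ranged from 912 through a median of 961 to 1037, and in silenced cells from 581 through 637 to 706. The ranges of other probes printed 10 times were not compared, so these ranges are a description of the MYC spots only. Of the measured genes 13.4% had a lower log2 ratio than MYC. The log2 ratio was -0.60 ± 0.06 (SD over 10 spots), ranging over the spots from -0.71 to -0.51, a 1.51-fold lower signal. These are spots of the same pair of RNA samples and not replicate cultures.

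**Figure D2:**
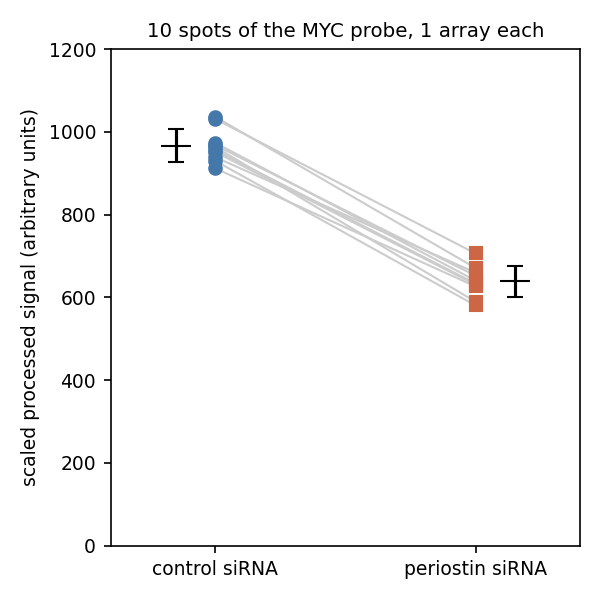
Scaled processed signal (arbitrary units, axis from 0) of the 10 spots of the MYC probe on the control array (circles) and the silenced array (squares), with grey lines joining the spots at the same array position and black marks for the mean ± SD over the spots. Control spots lie between 912 and 1037 and spots of silenced cells between 581 and 706.

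**Figure D3:**
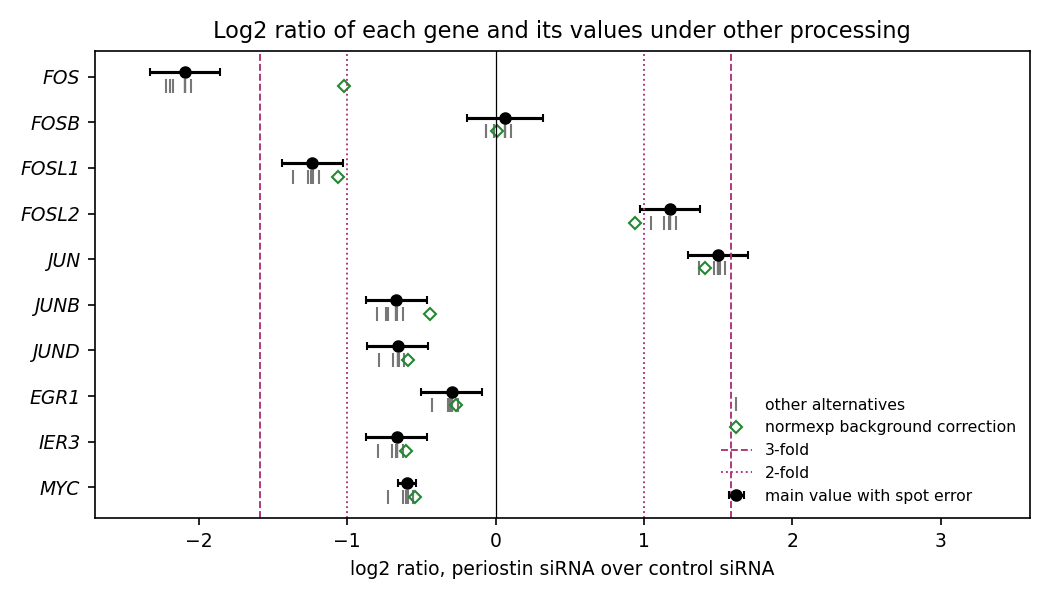
Log2 ratio of silenced to control cells for the 10 genes (black circles, bars for the spot error), with the values under the normexp background correction (diamonds) and the other alternatives (ticks) just under each. Dotted lines mark 2-fold and dashed lines 3-fold; FOS is past 3-fold at -2.09 and close to 2-fold under normexp at -1.02, and the FOSB values lie on both sides of 0.

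Ordered by log2 ratio from the lowest, the genes ran FOS, FOSL1, JUNB, IER3, JUND, MYC, EGR1, FOSB, FOSL2 and JUN. JUNB, IER3, JUND and MYC cannot be ordered, because each differed from the next by 0.06 or less on the log2 scale, under the combined spot error of 0.22 or more. FOSL1 lay 0.86 above FOS against a combined error of 0.31, and JUNB lay 0.57 above FOSL1 against 0.29. Under normexp FOS at -1.02 and FOSL1 at -1.06 changed places, and JUN at 1.41 lay farthest from 0. JUN lay 0.32 above FOSL2 against a combined error of 0.29, and EGR1 lay 0.36 below FOSB against 0.33, so these pairs were scarcely separated.

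At the 3-fold threshold of the study, 1 of the 10 genes was lower, FOS, and none was higher. Over all 16052 measured genes 6.12% were past 3-fold, 2.75% lower and 3.37% higher. At 2-fold, FOS and FOSL1 were lower and FOSL2 and JUN were higher, 4 of 10, where 14.4% of all measured genes were past 2-fold, 6.42% lower and 7.97% higher. Under the normexp correction none of the 10 was past 3-fold. With that correction 2 were lower by more than 2-fold and 1 was higher, as FOSL2 gave 0.94.

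**Figure D4:**
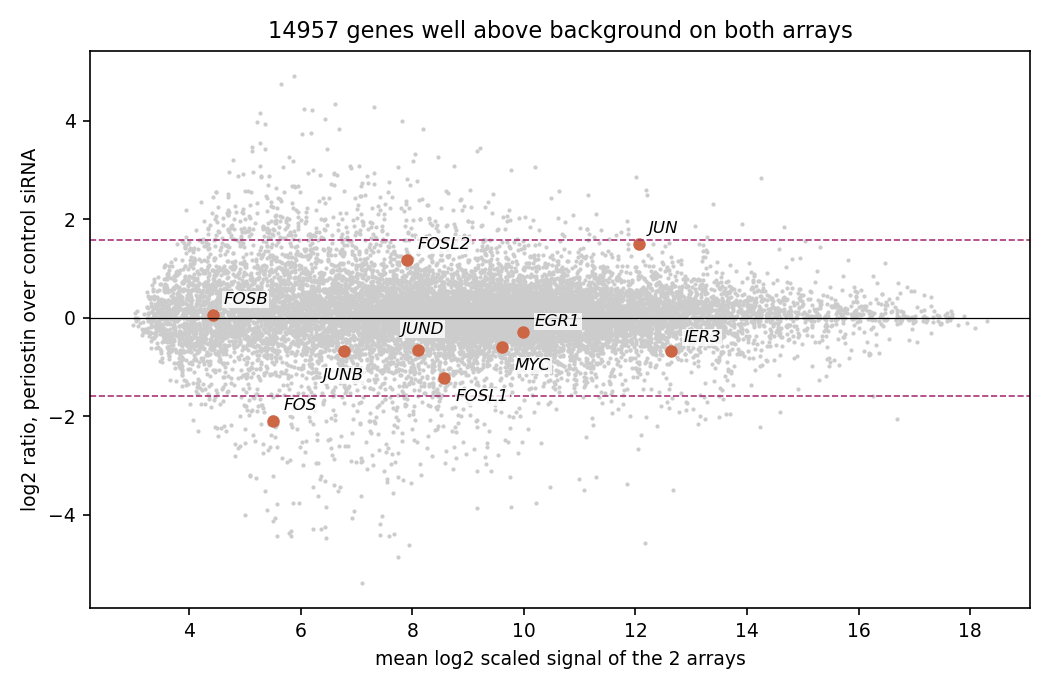
Log2 ratio of silenced to control cells against the mean log2 scaled signal for the 14957 genes well above background on both arrays (grey points), with the 10 genes in orange and dashed lines at 3-fold. FOS lies below the lower line among dim genes, JUN just under the upper line among bright genes, and the scatter of all genes is widest at low signal.

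Other immediate early genes were lower more often than higher. Of 29 such genes 26 could be measured, 19 lay below 0, and the median log2 ratio was -0.45 against 0.06 over all genes. Of all 16052 measured genes 7307 lay below 0, the share to set beside this count and those of the lists that follow. By more than 3-fold 2 were lower and 0 higher, 7.69% of the list, where 2.75% of all measured genes were lower and 3.37% higher. By more than 2-fold 6 were lower and 0 higher, 23.1% of the list, where 6.42% of all genes were lower and 7.97% higher, and under normexp 4 were lower and 1 higher. NR4A2, an orphan nuclear receptor induced like FOS, had a signal of 712 in control cells and 43.4 in silenced cells, a log2 ratio of -4.03 ± 0.21, and its second probe gave -4.58. HBEGF, a ligand of the EGF receptor, had signals of 219.9 and 28.4, a log2 ratio of -2.95 ± 0.22. DUSP1, a phosphatase that switches off MAP kinases, gave -1.44 ± 0.10 (SD over 10 spots), and CCN2 gave -1.40, NR4A3 -1.03 and SGK1 -1.02. BTG2, an antiproliferative gene and p53 target, was the highest of the list at 0.96 ± 0.20. With normexp NR4A2 gave -2.84, HBEGF -1.76, NR4A3 -0.43 and SGK1 -0.99, the last 2 under 2-fold. NR4A1 and ARC were not well above background on either array, and RHOB was not matched.

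The AP-1 dimer partners and related leucine zipper genes did not lean to either side, with 8 of 16 below 0 and a median log2 ratio of -0.06. Past 3-fold lay 3 of the 16, or 18.8%, beside 6.12% of all measured genes. BATF3 was 4.42-fold lower, with signals of 339 and 76.8, and MAFF, a small MAF protein induced by stress, was 3.24-fold lower, with signals of 646 and 199 and a log2 ratio of -1.70 ± 0.09 (SD over 10 spots). With normexp MAFF gave -1.46, under 3-fold. BATF2, also an interferon response gene, was 4.88-fold higher, with signals of 140.9 and 687. ATF3, an immediate early partner of JUN, gave -0.78 ± 0.20. In the EGR family the median log2 ratio of the 3 genes measured was 0.54, that of the corepressor NAB1. It was 0.24 with the mean over probes of a gene. EGR2 gave 0.77 ± 0.31 from a dim signal of 11.6 in control cells, EGR3 and EGR4 were not well above background on either array, and the other corepressor, NAB2, itself a target of EGR1, gave -0.25 ± 0.20.

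Most genes listed as output and feedback genes of ERK signalling were lower, and ERK activity itself was not measured. Of 15 output and feedback genes all were measured, 10 lay below 0, and the median log2 ratio was -1.25. By more than 3-fold 4 were lower, which is 26.7% beside 2.75% of all measured genes, and 8 were lower by more than 2-fold, which is 53.3% beside 6.42%. Under normexp 7 were, without ETV5 at -0.83. ETV1, an ETS factor, had signals of 1614 in control cells and 260.5 in silenced cells, a log2 ratio of -2.63 ± 0.20, and its 3 other probes gave -2.03 to -2.90. ETV4, a related factor, gave -2.09 ± 0.22. SPRY2 and SPRY4, feedback inhibitors of receptor signalling, gave -1.77 ± 0.20 and -1.72 ± 0.20, although a second, dimmer probe of SPRY4 gave -0.73. With normexp ETV4 gave -1.13 and SPRY4 -1.43, both under 3-fold.

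DUSP6, the phosphatase of ERK, gave -1.58, SPRED1 -1.56, PHLDA1 -1.49 and ETV5 -1.25, each with an error of 0.20 or 0.21. The exceptions were EPHA2 at 0.20, DUSP5 at 0.22, EPHA4 at 0.32, SPRY1 at 0.33 and DUSP4, the highest, at 0.79. The count past 3-fold was 2 under normexp and 7 under scaling on the median, while the median of the list stayed between -1.37 and -0.83 in the settings run.

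Of the 14 kinases of the ERK, JNK and p38 cascades 9 lay below 0, with a median log2 ratio of -0.09, and none was past 2-fold. RPS6KA2 was the lowest at -0.83 and RPS6KA5 the highest at 0.93. SRF, the factor at the CArG box, gave 0.24 ± 0.21. The 6 genes measured of its list, SRF included, had a median log2 ratio of 0.22, and FHL2, a LIM-only protein, was the highest at 1.16 ± 0.05 (SD over 10 spots), with a second probe at 1.22. ELK1 was the lowest at -0.30 ± 0.22, but a dimmer probe of it gave 0.30, and ELK3 was not matched.

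**Figure D5:**
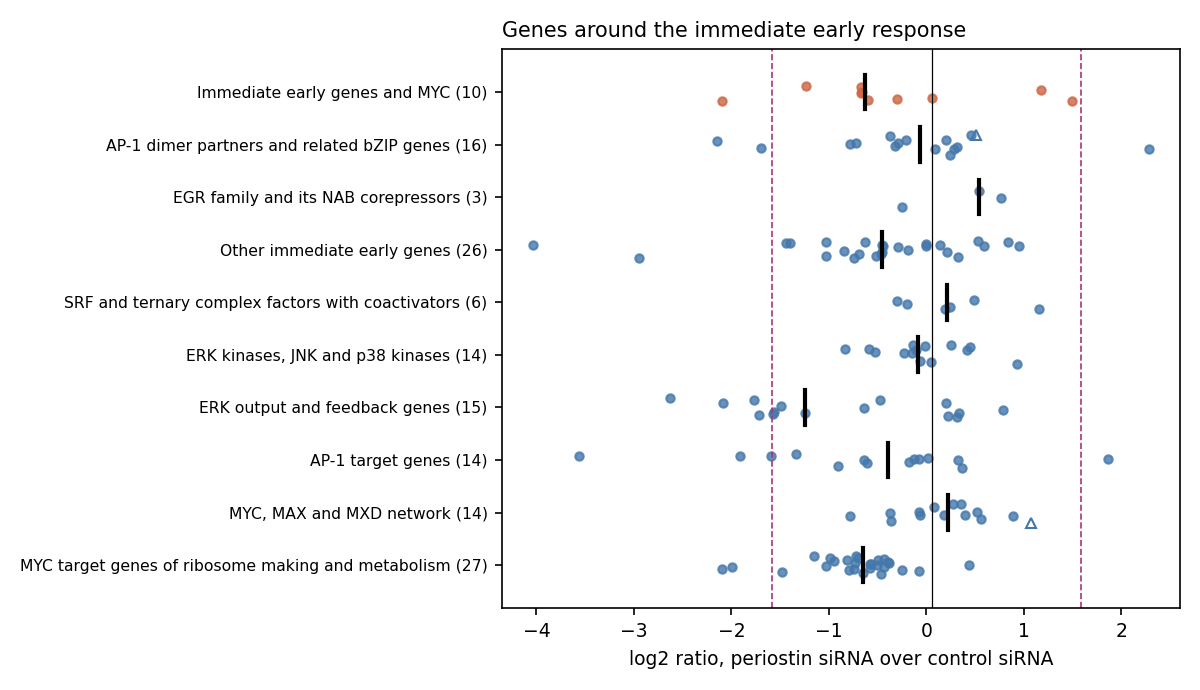
Log2 ratio of silenced to control cells for the 10 genes (orange) and for the genes of 9 lists around them (blue), with the number measured in brackets, black bars at each median, dashed lines at 3-fold and the thin line at the median of all measured genes, 0.06; open triangles are lower bounds. The ERK output and feedback genes have the lowest median at -1.25, and the MYC target genes have a median of -0.65.

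Among 15 genes known as AP-1 targets, 14 were measured, 10 lay below 0 and the median log2 ratio was -0.39. Past 3-fold lay 4 of them, 3 lower and 1 higher, which is 28.6% beside 6.12% of all measured genes. MMP10, a stromelysin, had signals of 690 in control cells and 58.2 in silenced cells, a log2 ratio of -3.57 ± 0.21 that was -2.53 with normexp. MMP1, the interstitial collagenase, gave -1.91 ± 0.04 (SD over 10 spots), at least 1 of which carried an outlier flag. PLAU, the urokinase gene, gave -1.59 ± 0.03 (SD over 10 spots) with a second probe at -1.88, and was past 3-fold in 8 of 11 settings. IL6 was 3.63-fold higher, with signals of 92.1 and 335, and was under 3-fold with normexp at 1.44. MMP13 was not well above background on either array.

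Almost all MYC target genes of ribosome making and metabolism were lower, most of them by less than 2-fold. Of 27 measured 26 lay below 0, with a median log2 ratio of -0.65. Between 25 and 26 lay below 0 in the settings run. MYC itself gave -0.60, and its part in these ratios was not tested. CCND2, a D-type cyclin, gave -2.09 ± 0.21 from signals of 330 and 77.5, and -1.45 with normexp. ODC1, the first enzyme of polyamine synthesis and a classic MYC target, was 3.99-fold lower, from signals of 18191 and 4561. These were the 2 genes of the list past 3-fold, 7.41% of it, where 6.12% of all measured genes were past 3-fold in either direction and 2.75% were lower. At 2-fold the share was 18.5%, where 14.4% of all genes were past it and 6.42% were lower. LDHA at -1.48, HSPD1 at -1.15 and POLR1B at -1.03 were the others past 2-fold, and POLR1B was under 2-fold with normexp, at -0.61. The nucleolar genes NCL, NPM1, FBL, NOP56 and NOP58 gave -0.58, -0.49, -0.72, -0.70 and -0.81, each with an error of 0.20. TFRC, the transferrin receptor, was the exception at 0.44 ± 0.05 (SD over 10 spots).

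The partners of MYC lay on both sides of 0. MAX, with which MYC binds DNA, gave -0.07 ± 0.20. Of 14 genes of the MYC, MAX and MXD network measured, 9 lay above 0 and the median was 0.23. MLX was the lowest at -0.78, and MLXIP, at 0.89, was the highest of those well above background on both arrays, although its second probe gave 0.25. MXD1 and MXD4, which compete with MYC for MAX, gave 0.56 and 0.39, while MXD3 gave 0.08, MXI1 0.18, MNT 0.35 and MGA -0.06. MYCL was well above background in silenced cells alone, at a signal of 15.9 and at least 2.11-fold higher, a log2 bound of 1.08 that was 0.11 with normexp. MYCN and MLXIPL were not well above background on either array.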

How the data were processed

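RNA of MRC-5 cells with control or periostin siRNA (10 nM, 48 h) was measured on 1 Agilent array each. The authors deposited the scanner files, whose intensity values Feature Extraction (11.5.1.1 in the headers, 12.0.3.1 in the submitters' notes) had background-subtracted and detrended but not scaled between arrays. A table of normalized intensity, also deposited, equals the scanner values times 3.65 (control) and 3.54 (silenced) for the 49697 probes printed once, within 1%. The array was annotated on hg19.

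Here log2 of the processed signal of the 58717 non-control spots was centred on each array's 75th percentile, in Python 3.11.15 with numpy 2.4.6 and pandas 2.3.3. Spots of a probe were averaged, and the brightest probe stood for a gene. For a probe with only 1 array well above background, the ratio is a bound against the lowest spot with that flag or the probe's own signal, whichever was higher. RefSeq accessions (GRCh38.p14) named 65.1% of the spots. Precision is limited by the number of arrays, 1 per condition. Alternatives used limma 3.58.1 in R 4.3.3, and the steps were checked on simulated data. Only genes with a signal above the 75th percentile were changed there, so changes of dim genes were not checked.

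The 10 genes and the 9 lists were chosen with earlier results of these data known. From each list, the genes past 3-fold and the highest and lowest well above background on both arrays were named, and other list genes were named after their values were seen. The alternatives were normexp with an offset of 50, quantile, median, loess (span 0.3), no scaling, scaling on spots above background on both arrays, the deposited table, spots with an outlier flag left out, the median over spots, the mean over probes, a filter on dim genes, and thresholds of 2-fold and 4-fold.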

Additional observations from a re-analysis of the deposited data

How the results depend on the processing

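No paired analysis was possible because there was a single array for either siRNA, which also left no replicate to omit. The alternatives for JUN, FOSL1, JUND, EGR1 and IER3 stayed within their spot error, and the sign of 9 of the 10 genes was kept in the 10 settings run, FOSB being the exception. Dim probes limit what can be read, since an offset pulls their ratios towards 0 by construction. The normexp correction gave log2 ratios of -1.02 for FOS, 0.94 for FOSL2, -0.44 for JUNB and -2.99 for POSTN, and medians of -0.22 for the AP-1 targets, 0.21 for the EGR family (0.54 in the values reported) and -0.83 for the ERK output genes. With it 0 of the 10 genes, 1 AP-1 partner, 2 ERK output genes and 1 MYC target were lower by more than 3-fold, 0 AP-1 targets were higher, and of all genes 190 were lower and 143 higher, against 441 and 541. Scaling on the median moved the median of all genes by -0.13 and gave -0.73 for MYC, with medians of -0.19 for the AP-1 partners, -0.52 for the AP-1 targets, 0.41 for the EGR family, -0.21 for the kinases, -1.37 for the ERK output genes (7 past 3-fold), -0.77 for the MYC targets, 0.10 for the MYC network, 0.087 for SRF and its cofactors (0.22 as reported) and -0.58 for the other immediate early genes. The mean over probes gave medians of -0.20 for the AP-1 partners and 0.24 for the EGR family, and the dim-gene filter -0.21 for the AP-1 partners.

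At 2-fold, 2 of the 10 genes, 8 ERK output genes, 5 MYC targets, 6 other immediate early genes and 1031 of all genes were lower, and 2 of the 10 genes, 1 gene of the MYC network, 1 gene of the SRF list and 1279 of all genes were higher. At 4-fold, 1 AP-1 partner, 1 AP-1 target, 2 ERK output genes, 1 MYC target and 274 of all genes were lower, and 0 AP-1 targets and 278 of all genes were higher.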

Other observations

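The raw median pixel of each spot, less the median of its local background, gave another reading of the same spots that uses neither the detrending nor the propagated error of Feature Extraction. For FOS it was 111 in control cells and 30.0 in silenced cells, a log2 ratio of -1.93 after the same scaling. JUN gave 2457 and 6836, a log2 ratio of 1.43, and FOSL2 gave 139 and 322.5, a log2 ratio of 1.17. FOSL1 gave 610 and 274.5, a log2 ratio of -1.20. The values of MYC, averaged over its 10 spots, were 933 and 644. None of the 20 spots of the 10 genes was saturated or carried an outlier flag on either array.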
